A study of Mus musculus with 18 samples.

Results

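The genes described here were 3 metallothioneins (*Mt1*, *Mt2* and *Mt3*), the 2 ferritin subunits (*Fth1* and *Ftl1*), the transferrin receptor (*Tfrc*), the iron importer *Slc11a2*, the iron exporter *Slc40a1*, and the iron regulatory proteins *Aco1* and *Ireb2*. They were picked by gene name and were 10 of the 51912 genes in the count table. All 10 passed the filter on low counts (a total of 10 or more read pairs when the 18 libraries are added up), which left 24495 genes to test. The libraries came from primary cultures of cortical astrocytes from mice of the B6;FVB line Tg(Aldh1l1-EGFP/Rpl10a)JD130Htz/J, hemizygous, at postnatal day 0, with as many male as female cortices. This transgene, carried by control and ethanol cultures alike, places an EGFP-tagged ribosomal protein under the control of *Aldh1l1*, an astrocyte gene, so that an antibody to GFP pulls down the ribosomes of the cells that express it. Translating ribosome affinity purification (TRAP) with this antibody gave the IP fraction, and lysate set aside before the pull-down gave the input, the RNA of every cell in the dish. Cultures were kept in serum-free medium for 24 h and then received 50 mM ethanol or control medium for 24 h. IP libraries were made from 6 control and 6 ethanol dishes, and input libraries from 3 of the control and 3 of the ethanol dishes, replicates 4 to 6 of each treatment. The replicates are dishes, and nothing in the labels ties them to separate animals or culture preparations, so the p-values measure the spread between dishes.

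Metallothioneins are small cysteine-rich proteins that bind zinc and copper, and *Mt1* and *Mt2* are known to be induced by zinc through the transcription factor MTF1, while *Mt3* is mainly a brain form. Iron enters cells bound to transferrin through the transferrin receptor, passes into the cytosol through SLC11A2, is stored in shells made of ferritin heavy and light chains, and leaves through SLC40A1 (ferroportin). When iron is scarce, the iron regulatory proteins IRP1 (from *Aco1*, which is otherwise a cytosolic aconitase) and IRP2 (from *Ireb2*) bind a hairpin in certain mRNAs, the iron-responsive element. Binding near the 5′ end is known to hold back translation of the ferritin and ferroportin mRNAs, and binding in the 3′ untranslated region is known to protect the *Tfrc* mRNA from decay. The comparison of IP with input therefore asks how the mRNA of each gene was divided between tagged astrocyte ribosomes and total culture RNA, and the comparison of ethanol with control asks how 24 h of ethanol changed each fraction.

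The iron-responsive elements of *Fth1*, *Ftl1*, *Slc40a1* and *Tfrc* are printed because the first 3 of these mRNAs were the members with the largest decreases in IP. *Tfrc* has its elements at the other end and was not lower. The part of the elements in these values was not tested. The elements were found in the untranslated regions of GENCODE M21 transcripts (GRCm38) as a bulged C, a stem of 5 base pairs and a loop of 6 bases that reads CAGTGN. The loop is in capitals, and 6 bases are shown on each side of the hairpin.
*Fth1*, 5′ untranslated region, chr19:9982732-9982760, plus strand: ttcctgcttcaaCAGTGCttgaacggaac
*Ftl1*, 5′ untranslated region, chr7:45459779-45459807, minus strand: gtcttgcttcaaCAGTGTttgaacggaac
*Slc40a1*, 5′ untranslated region, chr1:45925465-45925493, minus strand: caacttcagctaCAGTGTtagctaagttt
*Tfrc*, 3′ untranslated region, chr16:32631219-32631247, plus strand: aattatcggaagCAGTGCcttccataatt
*Tfrc*, 3′ untranslated region, chr16:32631598-32631626, plus strand: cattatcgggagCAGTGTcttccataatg
*Tfrc*, 3′ untranslated region, chr16:32631663-32631691, plus strand: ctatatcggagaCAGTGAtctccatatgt
*Tfrc*, 3′ untranslated region, chr16:32631710-32631738, plus strand: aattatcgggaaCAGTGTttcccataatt
The *Fth1* and *Ftl1* elements have the same stem letters, and all 4 *Tfrc* sites lie in its 3′ untranslated region. The same search matched 28 of the 20890 genes with a 5′ untranslated region (0.134%) and 126 of the 20998 genes with a 3′ untranslated region (0.600%). No match of this form was found in *Slc11a2* or *Epas1*, whose elements are known to have other stems, and a match is only a match of letters.

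Of the other genes, the 3 metallothioneins are neighbours. *Mt3* (chr8:94152607-94154146), *Mt2* (chr8:94172664-94173568) and *Mt1* (chr8:94179082-94180327) lie side by side on the plus strand of chromosome 8 within 27721 bases. In RefSeq promoters of 300 bases (GRCm38.p6), the core of the metal response element, TGCACNC or TGCGCNC on either strand, occurred 3 times at *Mt1*, 4 times at *Mt2* and 1 time at *Mt3*. Of 32851 such promoters, 25.7% held it at least once, 1.97% at least 3 times and 0.517% at least 4 times. *Tfrc* had 2 matches in a promoter, *Aco1* 1, and *Fth1*, *Ftl1* and *Ireb2* none.

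Read pairs assigned to genes numbered 74239854 to 132810705 per library (median 84119135). The members' unstranded counts ran from 37 for *Slc40a1* to 768448 for *Fth1*. Levels are given as CPM, the read pairs of a gene relative to the library total after scaling by edgeR's TMM factors. Astrocyte markers summed to 1733 to 1929 CPM in IP and 1103 to 1183 CPM in input, and 8 of the 9 were higher in IP. Microglial markers summed to 29.4 to 36.9 CPM in IP and 113 to 134 CPM in input, and *P2ry12* of this list stayed under 1 CPM everywhere. Fibroblast markers summed to 98.1 to 116 CPM in IP and 208 to 215 CPM in input. The sum of endothelial and mural markers was also lower in every IP library than in any input library, with 2 of 6 called higher and 3 lower. Other sums were higher in IP. Oligodendrocyte markers summed to 226 to 270.2 CPM in IP and 149.5 to 174 CPM in input. Of these 9 markers, however, 3 were called higher in IP and 4 lower, and 4 stayed under 1 CPM in all libraries. Neuronal markers summed to 108 to 128 CPM in IP and 92.6 to 102 CPM in input, with 4 of 7 called higher and 1 lower. In bulk RNA, fewer cells of a type and less RNA per cell cannot be told apart.

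The deposited table counted read pairs without regard to strand and set aside pairs that fell on more than 1 gene, and this removed most of the signal of a pair of members. *Mt2* shares 432 exonic bases with an antisense gene, *Gm45774*, and *Ftl1* shares 355 exonic bases with *Gm10252* on the opposite strand and 109 with the small RNA gene *Gm22133* on its own strand. When only pairs on the gene's own strand were counted, *Mt2* had 15190 to 28682 read pairs per library in place of 715 to 1348, which is 1715 to 2745% of the unstranded count. *Ftl1* rose to 336 to 391% of its unstranded count and *Slc11a2*, which overlaps *Gm5475*, to 103 to 104%. The other 7 members kept 97.9 to 100% of their counts. Unstranded values of *Mt2* and *Ftl1* therefore rest on the stretches of these genes outside the overlaps, and both countings are given for them. Near-identical copies took few uniquely mapped pairs: the ferritin copy *Ftl1-ps1* had at most 1.8% as many as *Ftl1* and *Mt4* at most 1 pair, while pairs that map to several places were left out of all counts.

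**Figure D1:**
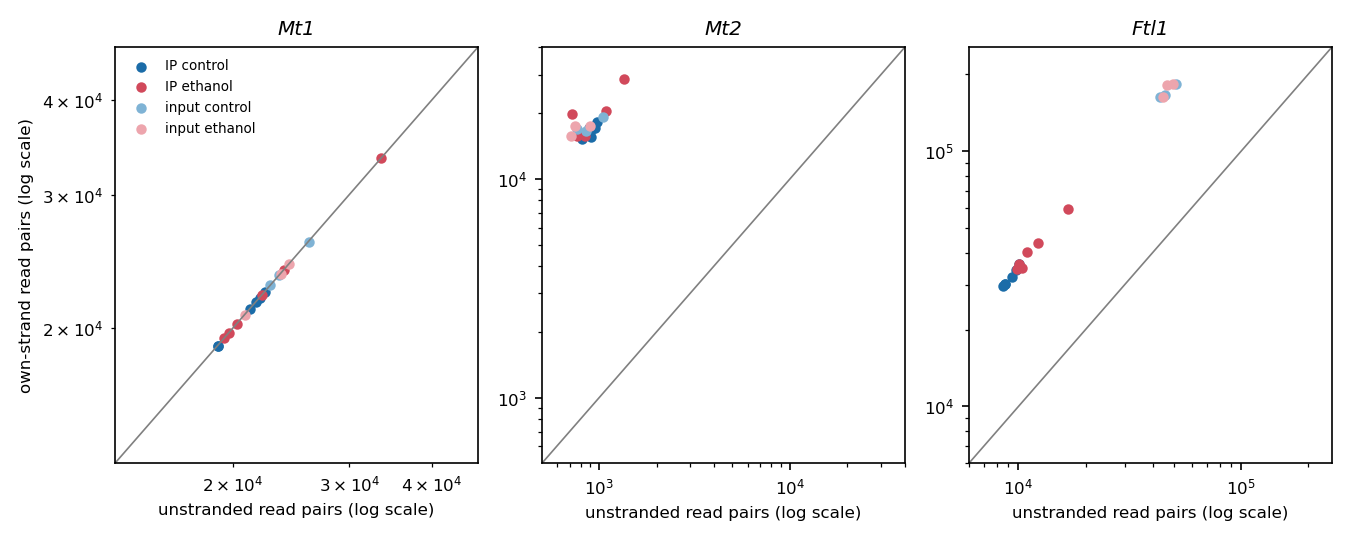
Read pairs per library counted without strand (x axis, log scale) and on the gene's own strand (y axis, log scale) for *Mt1*, *Mt2* and *Ftl1*; the grey line marks equal counts and each point is 1 of 18 libraries. *Mt1* lies on the line, whereas *Mt2* lies at 1715 to 2745% and *Ftl1* at 336 to 391% of the unstranded count.

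Per kilobase of the principal transcript, ferritin heavy chain mRNA was the most abundant of the 10 in both fractions. The following levels are own-strand CPM per kb. *Fth1* reached 8326 ± 180 (SD, n = 6) in input and 1701 ± 117 (SD, n = 12) in IP. In IP the order continued with *Mt3* at 704 ± 45.1, *Mt1* at 448 ± 23.4, *Ftl1* at 422 ± 31.9 and *Mt2* at 394 ± 15.4, and the ranges of neighbours among the last 3 overlapped. Far below these came *Slc11a2* at 39.1 ± 1.33, *Aco1* at 16.6 ± 0.569, *Ireb2* at 9.88 ± 0.454 and *Tfrc* at 9.23 ± 0.320, of which the last pair overlapped. *Slc40a1* was at 0.170 ± 0.0299, the lowest of the 10 in both fractions. In input the order differed in one place: *Ftl1*, at 1976 ± 130, stood second, above *Mt3* at 539 ± 29.1 and *Mt1* at 472 ± 11.9, whose ranges overlapped. Principal transcripts were taken from the annotation, and their use in these cells was not tested.

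**Figure D2:**
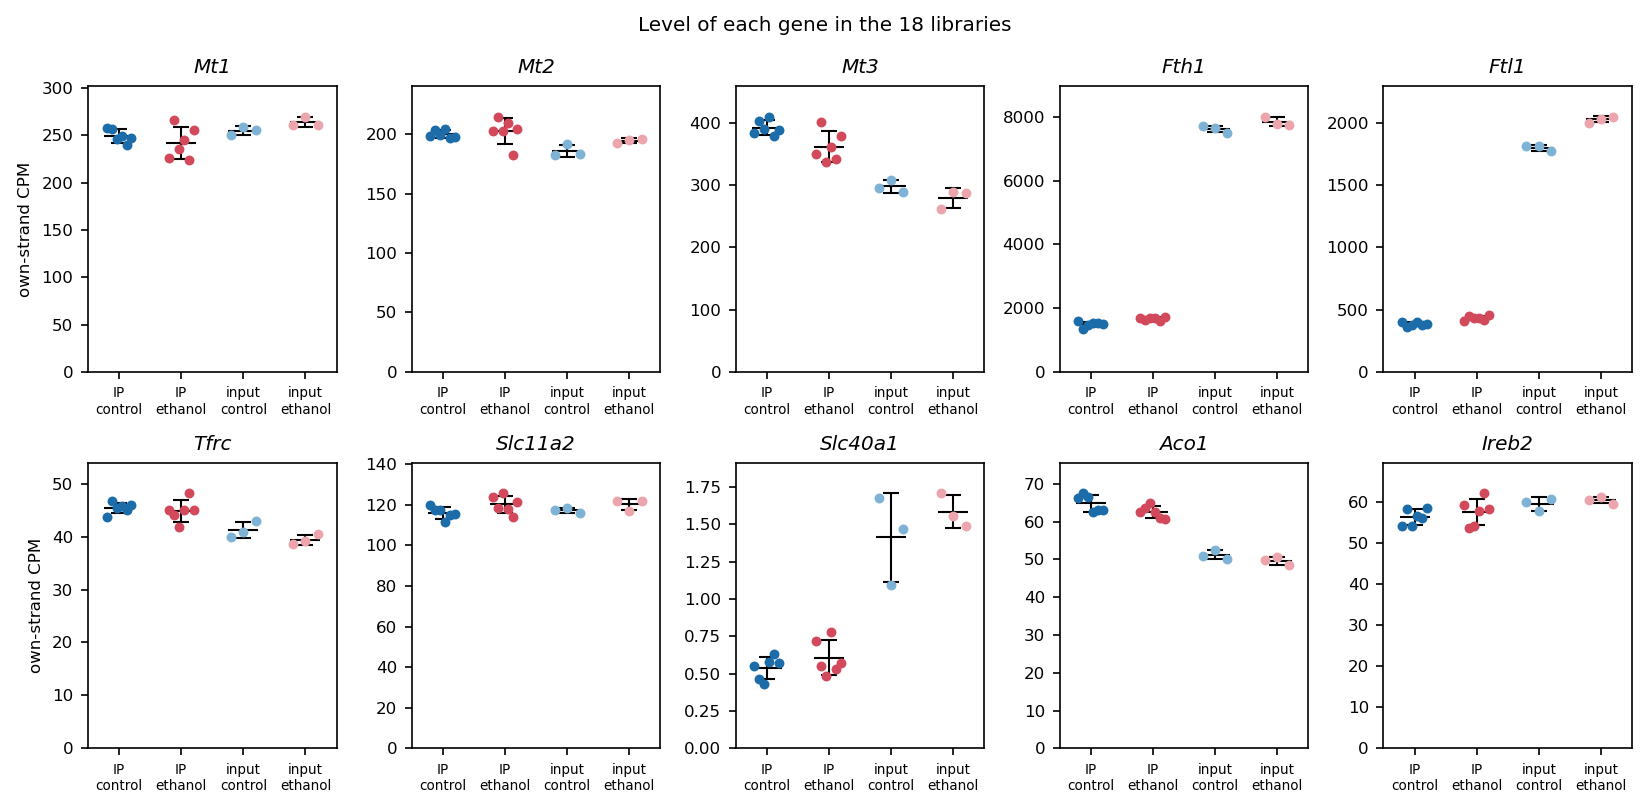
Own-strand CPM (y axis, starting at 0, a scale per gene) of each gene in the 4 groups; points are libraries, horizontal bars the mean and error bars the SD, with n = 6 in each IP group and n = 3 in each input group. *Fth1*, *Ftl1* and *Slc40a1* sit lower in every IP library than in any input library, *Mt3* and *Aco1* higher.

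Ferritin and ferroportin mRNAs were much lower in IP than in input, and the metallothionein and iron uptake mRNAs were not. Input holds the RNA of every cell in the dish, and whether astrocyte ribosomes or other cells gave this difference was not tested. Of the 10 members, 5 were lower in IP at an adjusted p below 0.05 and 3 were higher, where 25.8% of all genes tested were lower and 25.2% higher (edgeR's quasi-likelihood test, all 18 libraries with treatment as a term). The median log2 fold change of the members was -0.04, beside -0.03 over all genes tested. In 5 members no IP library overlapped any input library (*Fth1*, *Ftl1*, *Slc40a1*, *Mt3* and *Aco1*), a state that 25.0% of all genes shared. With own-strand counts, 9 of 10 members were called, against 53.0% of all genes, and the same 5 did not overlap, against 26.3%.

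*Fth1* (ENSMUSG00000024661, chr19:9980598-9985098), which encodes the subunit that oxidizes iron for storage, had 8027, 7947 and 7814 CPM in the input control libraries and 8351, 8126 and 8060 CPM in the input ethanol libraries. In IP control it ranged from 1410 to 1673 CPM (median 1571) and in IP ethanol from 1667 to 1787 CPM (median 1746). Every IP library was thus far below every input library. The mRNA was 4.91-fold lower in IP (log2 fold change -2.30, SE 0.03, edgeR adjusted p = 1.1e-28). Among 10860 nuclear protein-coding genes at a mean of at least 5 CPM, its change was the 28th lowest, and 220 of these genes fell below -1. Short genes were lower in IP more often. In a length class of 969 genes that spans the principal *Fth1* and *Ftl1* transcripts (929 and 968 bases), 64 fell below -1. The 1st percentile was -2.38 in this class and -1.37 over all 10860 genes. The change of *Ftl1* lay above the 1st percentile of the class. That of *Fth1* did too, but its longest transcript puts it outside the class. The part of transcript length in the ferritin values was not tested.

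*Ftl1* (ENSMUSG00000050708, chr7:45457944-45459884), the light subunit that helps the iron core form, behaved alike. Its own-strand level was 1813, 1815 and 1772 CPM in input control and 1999, 2030 and 2048 CPM in input ethanol. IP control ran from 357 to 402 CPM (median 382) and IP ethanol from 411 to 454 CPM (median 433), with no IP library near an input library. The own-strand log2 fold change was -2.23 (SE 0.02, edgeR adjusted p = 2.1e-62), and the unstranded one was -2.15 (SE 0.03, adjusted p = 3.1e-23), the 38th lowest of the 10860 genes.

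*Slc40a1* (ENSMUSG00000025993, chr1:45908068-45926523), the only known exporter of iron, was counted from at least 110 read pairs in each input library and from 37 to 107 in IP. Its level was 1.75, 1.14 and 1.53 CPM in input control, 1.78, 1.62 and 1.55 CPM in input ethanol, and 0.446 to 0.813 CPM in IP. Though sparse, the groups did not overlap, and the log2 fold change was -1.38 (SE 0.12, edgeR adjusted p = 2.7e-17). The microglial markers moved the same way: 9 of 10 were lower in IP, with a median log2 fold change of -2.43 over the 10. In input the 10 markers together reached at most 134 CPM. Of the 4 fibroblast markers, 3 were lower in IP and 1 higher, with a median of -1.59. The medians were -0.40 for oligodendrocyte, 0.35 for neuronal and -0.07 for endothelial and mural markers. The part of these cell types in the values of *Fth1*, *Ftl1* and *Slc40a1* was not tested.

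Within single dishes the ratio of the IP level to the input level, each scaled to its own library, varied little for the ferritins. The IP level of *Fth1* was 19.7, 19.9 and 20.0% of the input level in the control dishes 4 to 6 and 20.9, 20.5 and 22.2% in the ethanol dishes 4 to 6. For own-strand *Ftl1* these ratios were 22.1, 20.9 and 21.7% in control dishes and 21.7, 20.5 and 22.2% in ethanol dishes. The *Fth1* ratios of the ethanol dishes were all above those of the control dishes, whereas the *Ftl1* ratios overlapped. By an exact permutation test of 3 against 3 dishes, two-sided, p was 0.10 for *Fth1*, the smallest this design allows, and 0.90 for *Ftl1*. *Slc40a1* in IP stood at 34.0 to 57.7% of its input level, with a wider spread at its low counts.

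**Figure D3:**
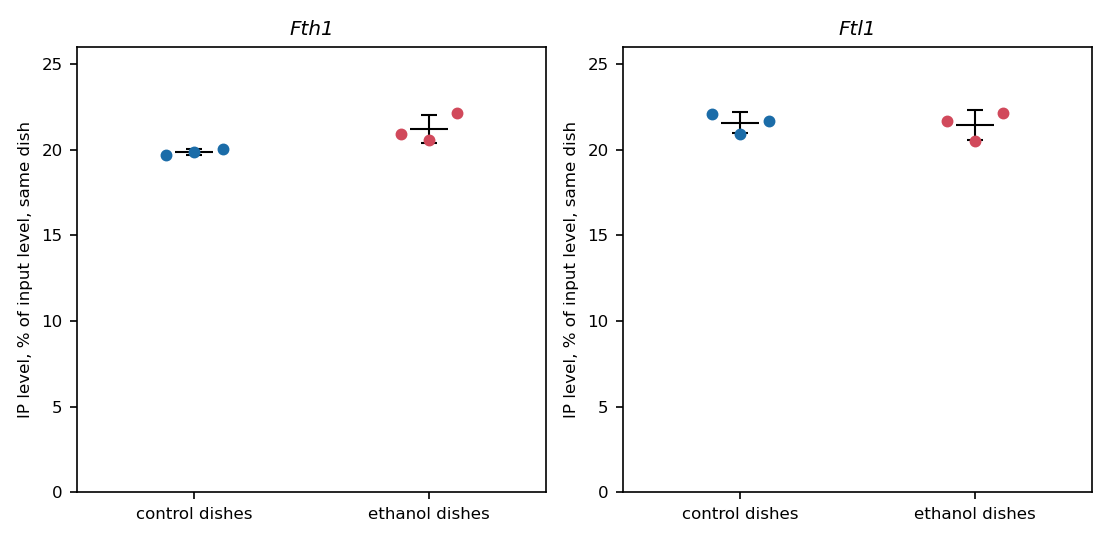
Own-strand IP level as a percentage of the input level of the same dish (y axis, from 0) for *Fth1* and *Ftl1* in 3 control and 3 ethanol dishes; points are dishes, horizontal bars means and error bars SDs. All 12 values lie between 19.7 and 22.2%.

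Not every mRNA known for or matched to an iron-responsive element in the 5′ untranslated region was lower in IP. *Epas1*, a hypoxia-inducible factor known for such an element, had 257 ± 8.78 CPM in input (SD, n = 6). It had 274 ± 6.67 CPM in IP (SD, n = 12), and the log2 fold change was 0.10 (SE 0.02, edgeR adjusted p = 2.5e-05). *Alas2*, the heme synthesis enzyme of red cells, had a match too but stood at a mean of only 0.0898 CPM (log2 fold change 0.35, adjusted p = 0.52). Of the 17 genes with a 5′ match at a mean of at least 5 CPM, only *Fth1* and *Ftl1* fell below -1. The median log2 fold change of the 17 was 0.02, beside 0.05 over the 10860 genes. Under 5 CPM, *Slc40a1* (-1.38), *Ftl1-ps1* (-1.88) and *Ppp1r1b* (-1.03) fell below -1 too, and the other tested 5′ matches did not. A match of letters need not be a working element, so these counts cannot tell how mRNAs with such elements divide. Of the 89 such genes with a 3′ match, none fell below -1, and their median was 0.09.

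*Tfrc* (ENSMUSG00000022797, chr16:32608920-32632794) differed little between the fractions. It had 41.6, 42.4 and 44.7 CPM in input control, 40.2, 40.9 and 42.0 CPM in input ethanol, and 43.5 to 50.1 CPM over the IP libraries, and 1 IP library, ethanol replicate 3, lay within the input range. Its log2 fold change was 0.16 (SE 0.03, edgeR adjusted p = 6.6e-08). *Slc11a2* (ENSMUSG00000023030, chr15:100387898-100425072), the importer that moves iron out of endosomes, had 113 to 127 CPM in IP and 117 to 123 CPM in input, and its log2 fold change was -0.00 (SE 0.02, edgeR adjusted p = 0.94). Scaled by total counts in place of TMM factors, it was lower in IP (-0.05, adjusted p = 0.021).

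Of the mRNAs of the iron regulatory proteins, *Aco1* was higher in IP and *Ireb2* was close to input. *Aco1* (ENSMUSG00000028405, chr4:40143081-40198338) ran from 63.0 to 70.2 CPM in IP and from 50.3 to 54.5 CPM in input with no overlap, a log2 fold change of 0.34 (SE 0.02, edgeR adjusted p = 1.0e-21). *Ireb2* (ENSMUSG00000032293, chr9:54863789-54912530) ran from 55.7 to 64.6 CPM in IP and from 60.1 to 63.9 CPM in input, a log2 fold change of -0.08 (SE 0.02, edgeR adjusted p = 0.0055). When dish was made a blocking factor, which uses only dishes 4 to 6 of each treatment, the call of *Ireb2* was lost (-0.05, adjusted p = 0.098), as it was in those same 12 libraries without the block (-0.05, adjusted p = 0.10).

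Among the metallothioneins, the brain form was higher in IP and the zinc-induced forms were close to input. Of the 9 astrocyte markers, 8 were higher in IP and 1 lower, with a median log2 fold change of 0.60. The part of astrocyte enrichment in the value of *Mt3* was not tested. *Mt3* (ENSMUSG00000031760) had 308, 322 and 301 CPM in input control, 273, 302 and 300.1 CPM in input ethanol, 394 to 428 CPM in IP control (median 405) and 352 to 418 CPM in IP ethanol (median 370). All IP libraries exceeded all input libraries, and the log2 fold change was 0.38 (SE 0.03, edgeR adjusted p = 6.0e-09). *Mt1* (ENSMUSG00000031765) ran from 232 to 277 CPM in IP and from 260 to 282 CPM in input, a log2 fold change of -0.08 (SE 0.03, edgeR adjusted p = 0.037). That call was lost when any of 7 single libraries was left out: input control replicate 5 (adjusted p = 0.057), input ethanol replicates 4, 5 and 6 (0.053, 0.069 and 0.073), IP control replicates 5 and 6 (0.059 and 0.050) or IP ethanol replicate 3 (0.068). *Mt2* (ENSMUSG00000031762), counted on its own strand, ran from 182 to 215 CPM in IP and from 182 to 196 CPM in input, a log2 fold change of 0.08 (SE 0.02, edgeR adjusted p = 0.00071). Its unstranded log2 fold change was 0.15 (SE 0.07, adjusted p = 0.066), and with the dish as a block 0.17 (adjusted p = 0.00057). The unstranded value also passed without input control replicate 5 (0.18, adjusted p = 0.049), input ethanol replicate 5 (0.19, 0.017), IP ethanol replicate 1 (0.18, 0.00047) or IP ethanol replicate 5 (0.16, 0.046).

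**Figure D4:**
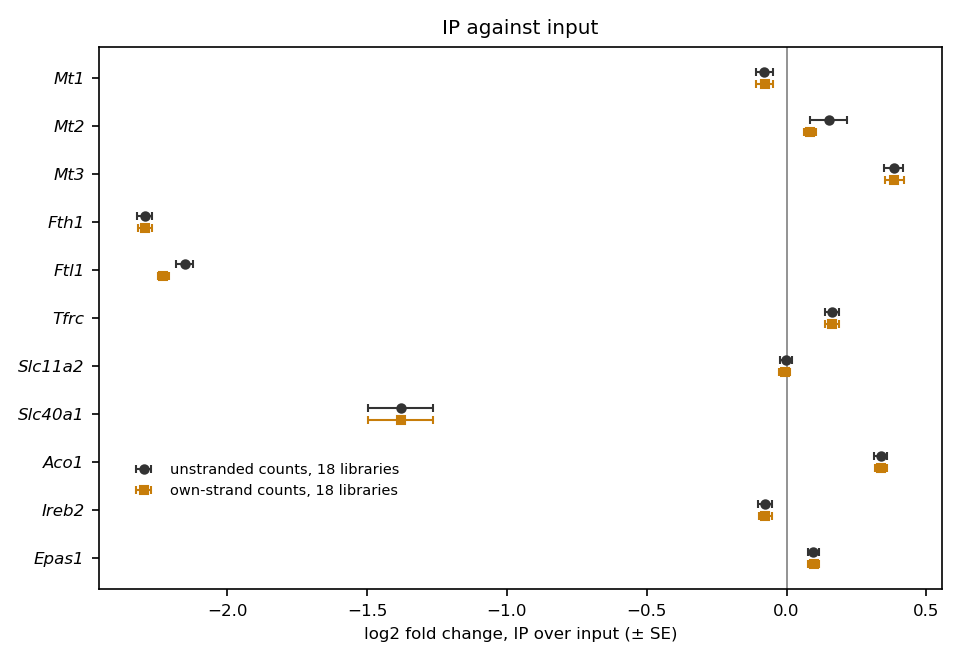
Log2 fold change of IP over input (x axis, points with SE bars) by edgeR in 18 libraries, for the 10 members and for *Epas1*, from unstranded (circles) and own-strand counts (squares). *Fth1*, *Ftl1* and *Slc40a1* lie at -1.38 or below, and the other 8 genes lie between -0.08 and 0.38.

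Other genes of metal and iron handling were taken from lists. Of 30 tested genes for zinc and copper transport, 15 were higher in IP and 6 lower, with a median log2 fold change of 0.10, where 25.2% of all genes were higher and 25.8% lower with a median of -0.03. The largest differences called at a mean of at least 5 CPM were all increases: the copper pump *Atp7b* (18.1 ± 0.927 CPM in IP control and 11.8 ± 0.596 in input control, log2 fold change 0.64, SE 0.04) and the zinc importers *Slc39a12* (0.58, SE 0.03) and *Slc39a4* (0.56, SE 0.05). Of 41 other tested iron genes, 18 were higher and 13 lower, with a median of 0.06 against the same shares and median of all genes. *Slc25a37*, which carries iron into mitochondria, was lower (11.6 ± 0.677 CPM in IP control and 21.5 ± 0.449 in input control, log2 fold change -0.93, SE 0.04). *Cybrd1*, a ferric reductase (0.85, SE 0.03), and *Bmp6*, a signal that raises hepcidin in the liver (0.69, SE 0.02), were higher. The adjusted p of these 6 genes by edgeR was at most 2.5e-17.

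Ethanol raised both ferritin mRNAs in IP by about the same small amount and lowered *Mt3*. Of the 10 members, 2 were higher and 1 lower in the 6 ethanol against 6 control IP libraries, where 11.9% of all genes were higher and 9.48% lower, and the median log2 fold change was 0.01 for the members and 0.01 for all genes. In no member did the unstranded levels of the treatments fail to overlap (9.96% of all genes). With own-strand counts the same number, 3, were called (22.4% of all genes), and *Ftl1* alone did not overlap (10.5% of all genes).

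*Fth1* ranged from 1410 to 1673 CPM in IP control (median 1571) and from 1667 to 1787 CPM in IP ethanol (median 1746), so only the edges of the groups met. This was an increase of 11.9% (log2 fold change 0.16, SE 0.03, edgeR adjusted p = 2.6e-05). *Ftl1*, on its own strand, rose from a median of 382 to 433 CPM, or by 13.0% (log2 fold change 0.18, SE 0.03, edgeR adjusted p = 1.7e-06), and by 0.16 (adjusted p = 0.00092) in unstranded counts. In a limited IP set, restricted to replicates 4 to 6 of each treatment so as to match the input, 3 members were called (15.2% of all genes): *Fth1* (0.14, SE 0.03, adjusted p = 1.5e-05), *Ftl1* (0.16, SE 0.03, adjusted p = 2.2e-05) and *Mt3* (-0.12, SE 0.03, adjusted p = 0.00065, and -0.08 with adjusted p = 0.078 without IP control replicate 4). These libraries are part of the 12, so this is no second sample. The summed microglial markers ranged from 29.4 to 32.8 CPM in IP control and from 32.7 to 36.9 CPM in IP ethanol, with 2 of 10 called higher, and the summed astrocyte markers from 1733 to 1811 and from 1857 to 1929 CPM, with 4 of 9 called higher. The summed oligodendrocyte markers were lower with ethanol, at 251 to 270.2 CPM in control and 226 to 245 CPM in ethanol, as were the neuronal ones, at 119 to 128 and 108 to 116.5 CPM. Single markers went both ways: 1 of 9 oligodendrocyte markers was called higher and 1 lower (median log2 fold change 0.12). Of 7 neuronal markers, 1 was called higher and 1 lower (median -0.04). The part of these cell types in the ferritin and *Mt3* values was not tested.

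*Mt3* fell from 394 to 428 CPM in IP control to 352 to 418 CPM in IP ethanol, with overlap, a log2 fold change of -0.11 (SE 0.03, edgeR adjusted p = 0.027). Without IP ethanol replicate 1 it was -0.10 (adjusted p = 0.077) and without IP ethanol replicate 5 -0.10 (adjusted p = 0.076), so that the call depended on each of these libraries. *Mt1* had 249 to 268 CPM in IP control and 232 to 277 CPM in IP ethanol (log2 fold change -0.04, SE 0.04, adjusted p = 0.58). *Mt2* had opposite signs in the 2 countings: -0.17 in unstranded counts (SE 0.07, adjusted p = 0.083) and 0.02 on its own strand (SE 0.03, adjusted p = 0.69). Its own-strand level was 196 to 204 CPM in IP control and 182 to 215 CPM in IP ethanol. The unstranded decrease was called by DESeq2 (-0.18, adjusted p = 0.031), by edgeR with no filter (-0.18, adjusted p = 0.0027) and by edgeR with filterByExpr (-0.18, adjusted p = 0.049). Leaving out IP ethanol replicate 3 or replicate 6 brought the unstranded decrease past the threshold (-0.21 each, adjusted p = 0.026 and 0.018).

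The remaining iron genes did not pass the test in IP. *Slc11a2* had 113 to 121 CPM in IP control and 115 to 127 CPM in IP ethanol (log2 fold change 0.05, SE 0.03, adjusted p = 0.14, and 0.07, adjusted p = 0.050, without IP ethanol replicate 5). *Tfrc* (-0.01, SE 0.03), *Aco1* (-0.04, SE 0.03), *Ireb2* (0.04, SE 0.03) and *Slc40a1* (0.19, SE 0.17) had adjusted p from 0.28 to 0.87. *Aco1* passed once trends with GC content and length were removed (-0.07, adjusted p = 0.027). The SE of *Slc40a1* exceeded the change in *Fth1*, so a change of that size was not detectable at its depth. Among the zinc and copper genes, 5 of 30 were higher and 2 lower, led by the zinc importer *Slc39a3* (0.15, SE 0.03), the copper chaperone *Ccs* (-0.15, SE 0.03) and *Slc39a14* (0.12, SE 0.03), a carrier of zinc and iron. Among all genes 11.9% were higher and 9.48% lower. Among the other iron genes, 7 of 41 were higher and 7 lower, against those same shares. *Slc22a17*, a receptor for the siderophore-binding protein lipocalin, rose from 88.8 ± 2.37 to 105 ± 6.69 CPM (0.24, SE 0.03), the metalloreductase *Steap4* fell from 275 ± 17.6 to 238 ± 12.2 CPM (-0.20, SE 0.04), and *Steap3* rose from 8.44 ± 0.227 to 9.67 ± 0.565 CPM (0.20, SE 0.05). The adjusted p of these 6 genes by edgeR was at most 0.0035.

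In input, the ferritin light chain was higher with ethanol and *Mt3* lower. These dishes also gave IP libraries, so they are no second set of dishes. In 3 against 3 libraries, 1 member was higher and 1 lower, where 7.21% of all genes were higher and 7.78% lower, with medians of 0.03 for the members and -0.00 for all genes. On the own strand 3 members were called (16.2% of all genes). The treatments did not overlap in 3 members (*Mt1*, *Fth1* and *Ftl1*; 27.1% of all genes) and on the own strand in 4, with *Mt2* added (28.0% of all genes). The same test by DESeq2 called none of the 10. Marker sums moved with ethanol here too: the microglial sum was 113 to 117.1 CPM in control and 117.2 to 134 CPM in ethanol (3 of 10 called higher), and the astrocyte sum 1103 to 1150 and 1155 to 1183 CPM (4 of 9 called higher and 3 lower). The neuronal sum was 101 to 102 CPM in control and 92.6 to 96.6 CPM in ethanol, and the oligodendrocyte sum 155.4 to 174 and 149.5 to 155.2 CPM. Yet 2 of 7 neuronal markers were called higher and 1 lower, and 2 of 9 oligodendrocyte markers higher and 1 lower. The part of these cell types in the values of *Ftl1* and *Mt3* was not tested.

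*Ftl1* on its own strand rose from 1813, 1815 and 1772 CPM to 1999, 2030 and 2048 CPM, an increase of 12.3% (log2 fold change 0.17, SE 0.02, edgeR adjusted p = 5.8e-13). In unstranded counts it was 0.13 (SE 0.02, adjusted p = 2.3e-07), and DESeq2 gave the same size with adjusted p = 0.054. *Fth1* had 8027, 7947 and 7814 CPM in control and 8351, 8126 and 8060 CPM with ethanol. These did not overlap, but the difference was small (log2 fold change 0.04, SE 0.02, edgeR adjusted p = 0.18). With GC and length trends removed it was 0.06 (adjusted p = 0.015).

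*Mt3* in input went from 308, 322 and 301 to 273, 302 and 300.1 CPM (log2 fold change -0.09, SE 0.02, edgeR adjusted p = 0.00093). One low library, input ethanol replicate 4, carried much of this: without it the change was -0.04 (adjusted p = 0.27), and without input control replicate 5 it was -0.07 (adjusted p = 0.085). DESeq2 (adjusted p = 0.26) and a stricter filter on low counts (adjusted p = 0.20) also ended the call. *Mt1* had 260, 269 and 266 CPM in control and 272, 282 and 272 CPM with ethanol (0.05, SE 0.02, adjusted p = 0.17, and 0.09, adjusted p = 0.00092, with GC and length trends removed). *Mt2* had, on its own strand, 182, 191 and 183 CPM in control and 192, 195 and 196 CPM with ethanol (0.06, SE 0.02, edgeR adjusted p = 0.035). In unstranded counts *Mt2* was -0.06 (SE 0.07, adjusted p = 0.70), so the sign again depended on the counting.

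*Tfrc* (-0.07, SE 0.04), *Slc11a2* (0.03, SE 0.03), *Slc40a1* (0.17, SE 0.16), *Aco1* (-0.05, SE 0.03) and *Ireb2* (0.02, SE 0.03) had edgeR adjusted p from 0.21 to 0.76 in input. *Tfrc* passed with GC and length trends removed (-0.11, adjusted p = 0.019). *Epas1* fell from 260, 260 and 269 to 256, 254 and 242 CPM (-0.07, SE 0.02, adjusted p = 0.016). Among the other iron genes 5 of 41 were higher and 5 lower, where 7.21% of all genes were higher and 7.78% lower, with *Steap4* (-0.24, SE 0.02), *Slc22a17* (0.17, SE 0.03) and the iron-sensing ubiquitin ligase subunit *Fbxl5* (0.12, SE 0.04) the largest. Among zinc and copper genes, against the same shares, 5 of 30 were higher and 2 lower, with *Ccs* (-0.15, SE 0.03), *Slc30a4* (0.14, SE 0.04) and *Slc31a2* (0.12, SE 0.03) the largest. The adjusted p of these 6 genes by edgeR was at most 0.015.

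**Figure D5:**
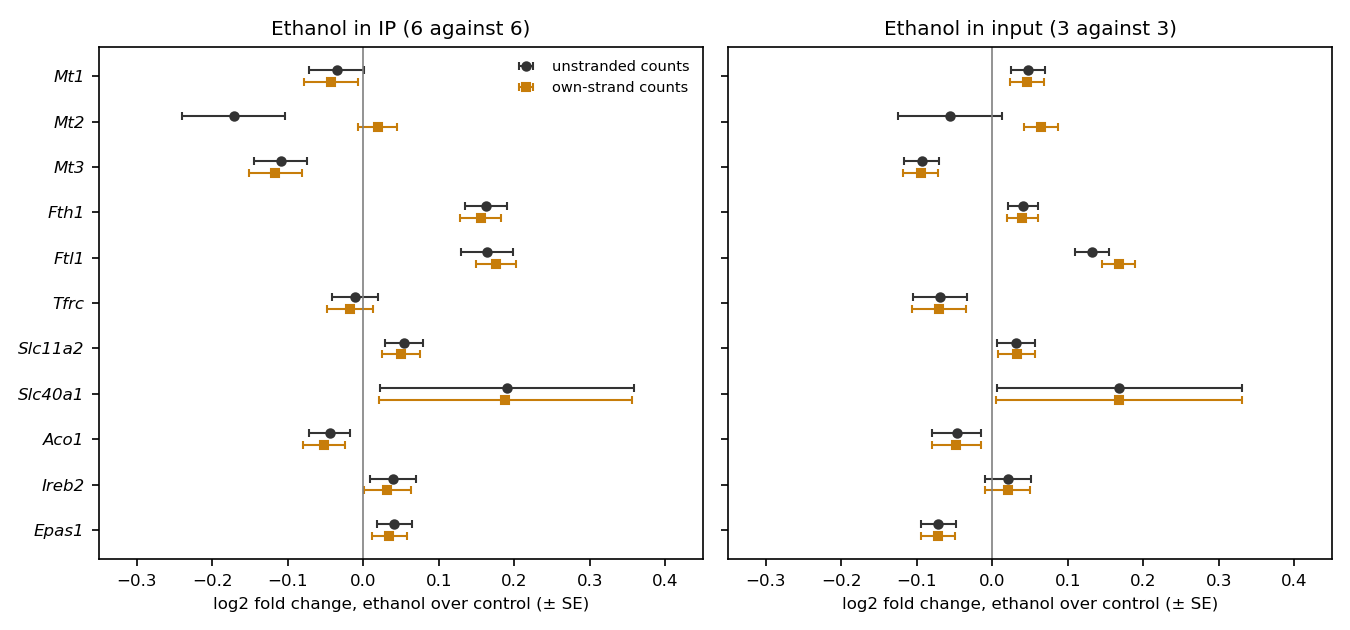
Log2 fold change of ethanol over control (x axes, points with SE bars) by edgeR in the IP libraries (6 against 6) and the input libraries (3 against 3), from unstranded (circles) and own-strand counts (squares). *Ftl1* lies between 0.13 and 0.18 in both fractions, *Fth1* at 0.16 in IP and 0.04 in input, and the 2 countings of *Mt2* lie apart.

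Whether ethanol acted differently on the fractions was tested by an interaction term. Over all 18 libraries no gene passed (0.0% of all genes, 1459 at an unadjusted p under 0.05, and 2 genes by DESeq2), and *Fth1* differed by 0.11 (SE 0.04, edgeR adjusted p = 0.79). When dish was a blocking factor (12 libraries), 102 genes passed (0.416%), and *Fth1* was the 1 member among them, with an ethanol effect 0.11 larger in IP than in input (SE 0.03, edgeR adjusted p = 0.014). The value on its own strand was 0.11 (adjusted p = 0.013). In the same 12 libraries without the block, 13 genes passed and *Fth1* differed by 0.11 with adjusted p = 0.26. *Epas1*, which is no member, passed with the block as well (0.13, SE 0.03, edgeR adjusted p = 0.034), its IP level being 101 to 105% of input in control dishes and 109 to 115% in ethanol dishes. *Ftl1* differed by 0.05 (SE 0.03, adjusted p = 0.85) under the same block and by 0.01 on its own strand (adjusted p = 0.99).

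Ratios of 2 genes within a library do not depend on its scaling. On the own strand, *Fth1* pairs outnumbered *Ftl1* pairs 3.90 ± 0.0917 times in IP control (SD, n = 6), 3.85 ± 0.160 times in IP ethanol (n = 6), 4.23 ± 0.0237 times in input control (n = 3) and 3.88 ± 0.115 times in input ethanol (n = 3). The input control libraries (4.21 to 4.26) lay above the input ethanol libraries (3.79 to 4.01), with p = 0.10 by the exact permutation test, the smallest 3 against 3 allows. *Mt1* pairs outnumbered own-strand *Mt2* pairs 1.25 ± 0.0300 times in IP control, 1.19 ± 0.0536 times in IP ethanol, 1.37 ± 0.0205 times in input control and 1.35 ± 0.0266 times in input ethanol. The log2 ratio of *Mt1* to *Mt2* was 0.16 lower in IP than in input over the 6 dishes, lower in each (exact sign-flip permutation test, p = 0.031, the smallest 6 pairs allow, and 0.094 adjusted over 9 tests). The log2 ratio of *Tfrc* to *Fth1* was 2.47 higher in IP (exact sign-flip permutation test, p = 0.031, adjusted p = 0.094). In IP, the log2 ratio of *Tfrc* to *Fth1* differed by -0.18 between ethanol and control (exact permutation test of 6 against 6, two-sided, p = 0.011, adjusted p = 0.094). None of the 9 ratios passed an adjusted p of 0.05 in either counting. Without IP ethanol replicate 5, the unstranded *Tfrc* to *Fth1* difference in IP was -0.21 and passed (exact permutation test, adjusted p = 0.039).

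Deviations of single libraries from their group means were compared between genes. Over the 18 libraries, own-strand log2 CPM deviations from the group mean had Pearson r = 0.77 for *Mt1* with *Mt3*, 0.72 for *Mt1* with *Mt2* and 0.66 for *Fth1* with *Ftl1*, while *Fth1* with *Tfrc* had -0.55. These points share libraries and, for input and IP, dishes, and the correlations are a description only. At a mean of at least 5 CPM, the genes whose unstranded deviations were most like those of *Fth1* were *Pigq* (r = 0.87), *March2* (0.84) and *Mkrn2* (0.82). For *Tfrc* they were *Sash1* (0.92), *Itgav* (0.90) and *Cadm2* (0.90). For *Mt2* they were *Aspscr1* (0.86), *Atp6v0c* (0.82) and *Retsat* (0.81) in unstranded counts, but *D8Ertd738e* (0.85), *Sirt2* (0.85) and *Trip6* (0.84) in own-strand counts, so the countings shared none of the 3 genes.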

How the data were processed

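Total RNA of 12 IP and 6 input samples was depleted of rRNA and made into stranded libraries (Ribo-Zero Plus kit). Per the methods of the study, paired reads went through Trimmomatic and then STAR on GRCm38, and the authors deposited raw counts of read pairs per gene for each library in unstranded, forward-strand and reverse-strand form, together with a table of the unstranded counts. That table equalled the single files (0 differences). The deposited counts are not normalized, and multimapping pairs (on average 3.6% of pairs) and pairs on several genes (5.5%) were left out by the counting. Multimapping pairs made up 2.95 to 3.19% of pairs in IP libraries and 4.56 to 4.77% in input libraries. How many of them came from ferritin genes and their copies was not tested. Reverse-strand counts, which hold the gene's own strand in this kit, were used as own-strand counts. The depth of 74239854 to 132810705 counted pairs bounds counting error only.

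The 24495 genes whose counts summed to 10 or more entered edgeR 4.0.16 (TMM, robust quasi-likelihood test, Benjamini-Hochberg adjustment over all genes tested, threshold 0.05) in R 4.3.3. DESeq2 1.42.0, the tool of the study, was an alternative, beside other scalings, filters, counting by strand, a fold threshold of 1.2, removal of GC and length trends, and leaving out each library. The tests were tried on simulated data. Exact permutation tests used scipy 1.17.1. The members and gene lists were chosen with earlier results of these data known. Named were all members, the 3 largest called changes per list and comparison at a mean of at least 5 CPM, genes with iron-responsive elements (1 of them is not reported here), and the 3 genes most like *Mt2*, *Fth1* and *Tfrc*. Input and IP libraries of one dish carry the same dish number in the labels, and the dish was used as a block. Same-dish deviations correlated by 0.02 to 0.15.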

Additional observations from a re-analysis of the deposited data

Results flagged for a closer look

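With the dish as a block, the ethanol effect on *Fth1* differed between the fractions by 0.11 on the log2 scale (edgeR adjusted p = 0.014), being larger in IP. In the same 12 libraries without the block it was 0.11 (adjusted p = 0.26), and in all 18 libraries without the block 0.11 (adjusted p = 0.79). No library stood apart from its group in any of the 24 sets of 6 IP values that were examined with Dixon's criterion, under which chance alone gives about 1 in 20.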

How the results depend on the processing

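Of 724 alternative values of single members, 655 kept their direction and side of the threshold, 29 lost the call, 25 gained one and 15 changed sign; unless a value below shows it, the cause was not tested. A test against a fold of 1.2 left 3 members lower and 2 higher (*Mt3* and *Aco1*) in IP than in input and 4936 genes called. It left 0 members higher and 0 lower with ethanol in IP, input and limited IP, where 95, 55 and 65 genes were called. With ethanol in IP, 2 members were lower under DESeq2, with no filter, with filterByExpr and with GC and length trends removed, and 0 to 2 with 1 library left out. In input, DESeq2 called 0 higher and 0 lower, filterByExpr 0 lower, own-strand counts 2 higher, and removal of trends 3 higher and 2 lower, with 0 to 1 lower when 1 library was left out. In limited IP, leaving out 1 library gave 2 higher each time and 0 to 2 lower.

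Signs changed for small values. *Slc11a2* in IP over input was 0.0050 with no filter and -0.014 to 0.0042 with 1 library left out. With ethanol in IP, *Mt1* was 0.023 with trends removed, *Mt2* 0.019 on its own strand, and *Tfrc* -0.033 to 0.0015 with 1 library left out. With ethanol in input, *Mt2* was 0.064 on its own strand, 0.0031 with trends removed and -0.13 to 0.024 with 1 library left out, and *Ireb2* was -0.021 with trends removed and -0.0017 to 0.035 with 1 library left out. On the own strand, the ethanol difference of the log2 ratio *Mt1* to *Mt2* was -0.062 in IP and -0.019 in input, and that of *Fth1* to *Ftl1* in IP -0.020, and -0.026 to 0.024 with 1 library left out in unstranded counts. With 1 library left out, that of *Tfrc* to *Fth1* in IP was -0.21 to -0.14, and it passed only without IP ethanol replicate 5.

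The control and ethanol dishes share only numbers (correlations -0.10 to 0.22). With the replicate number as a block, 2 members were lower with ethanol in IP, *Mt2* among them (-0.18, adjusted p = 0.0011). For the difference between fractions, the dish as a block gave 1 member and 102 genes, 1 and 51 with trends removed as well, and 1 and 104 on the own strand, a fit added after the data were seen; the 12 libraries without the block, also added later, gave 13 genes, DESeq2 2 genes and leaving out 1 library 0 to 1.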
